A study of Homo sapiens with 6 samples.

Results

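Beta-tubulin is the protein that docetaxel binds, and 7 of its isotype transcripts were followed in PC3, a human prostate cancer cell line, and in PC3-DR, a line derived from PC3 and labelled as docetaxel resistant. They are TUBB (ENST00000327892), TUBB2A (ENST00000333628), TUBB2B (ENST00000259818), TUBB3 (ENST00000315491), TUBB4A (ENST00000264071), TUBB4B (ENST00000340384) and TUBB6 (ENST00000317702). One transcript identifier was fixed for each gene, and all 7 were found among the 102731 transcripts of the deposited mRNA table. All 7 passed the filter on low values, at least 1 FPKM in at least 3 of the 6 libraries, as did 24937 transcripts in all. FPKM is a read number scaled for transcript length and library total, so levels can be compared between genes. Other transcripts of the same genes were not analysed here, so each value describes 1 transcript and not the whole output of its gene.

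Each line gave 3 libraries of total RNA. PC3-DR was selected with docetaxel at 4 and 8 nM in 48 h pulses over 5 cycles, then at 8 and 12 nM in 48 h pulses over 12 cycles, then under continuous drug raised from 10 nM in 5 nM steps to 50 nM, and was kept in 40 nM for 1 month. The labels do not say whether the PC3 control libraries came from cells carried in parallel, whether PC3-DR is 1 clone, whether drug was present at harvest, or whether libraries of a line came from separate cultures, so p-values rest on a spread that may be technical.

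Microtubules are polymers of alpha-tubulin and beta-tubulin dimers, and taxanes bind the beta subunit inside the polymer, stabilise it and block mitosis. Vertebrate cells make several beta-tubulin isotypes from separate genes, and the proteins differ mainly in their acidic C-terminal tails. TUBB (class I) and TUBB4B (class IVb) are widely expressed, TUBB2A, TUBB2B, TUBB3 and TUBB4A are best known from neurons, and TUBB6 (class V) is found at low levels in many tissues. TUBB3 (class III) outside neurons is widely discussed in connection with taxane resistance in carcinomas.

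A pair of libraries stood apart in the mRNA table. Library totals inferred from the values were between 14411000 and 16186000 in 5 libraries and 43153000 in PC3-DR replicate 1. PC3-DR replicate 1 held 14943 transcripts at 1 FPKM or more, against 22650 to 29399 in the others, and transcripts assembled by the authors took 84.2% of its summed signal, against 66.4% to 70.6%. PC3 replicate 3 listed 15.1% of the tested transcripts at 0, PC3-DR replicate 1 listed 13.9%, and the other 4 libraries listed 5.46% to 6.83%. Of the 318 tested transcripts with at least 5 FPKM in all libraries but PC3 replicate 3, that library listed 19 at 0. Each other library, counted the same way, listed at most 1 of between 117 and 144 at 0. The difference of each transcript is therefore also given without these libraries.

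TUBB, the class I isotype, was the most abundant of the 7 transcripts in every library. In replicates 1 to 3 of PC3 its level was 32.6, 20.9 and 8.34 FPKM, and in replicates 1 to 3 of PC3-DR it was 53.4, 26.5 and 29.7 FPKM. PC3 replicate 3 was lowest, PC3-DR replicate 1 was highest, and PC3 replicate 1 lay above 2 of the 3 PC3-DR libraries, so the groups overlapped. The mean was 20.6 ± 12.1 FPKM (SD, n = 3) for PC3, against 36.5 ± 14.7 FPKM (SD, n = 3) for PC3-DR. The fitted difference, PC3-DR minus PC3 on the log2(FPKM + 1) scale, was 0.91 ± 0.54 (SE; 95% interval -0.28 to 2.10; adjusted p = 0.868, limma with Benjamini-Hochberg adjustment over all tested transcripts). It was 0.40 without PC3 replicate 3 and 0.61 without PC3-DR replicate 1, and it turned to -0.04 under quantile normalization. Read numbers recovered for TUBB, on an inferred length of 2670 nt, were 1408, 817 and 321 in PC3 and 6157, 1135 and 1237 in PC3-DR. The exact Poisson 95% interval was 7.46 to 9.31 FPKM in PC3 replicate 3 and 30.9 to 34.3 FPKM in PC3 replicate 1, so these replicates of 1 line differed by more than counting error. Such intervals cover counting error only, because reads are not independent molecules after amplification.

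Within each library TUBB lay near the top of the tested transcripts. Its level was above that of 99.8% of them in 5 libraries and of 99.7% in PC3 replicate 3, a scale on which so abundant a transcript has little room to move, while its FPKM spanned 6.41-fold.

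TUBB4B, the class IVb isotype and also a widely expressed one, came next. The PC3 libraries, in the order of their numbers, held 12.8, 8.81 and 3.56 FPKM, whereas the PC3-DR libraries held 21.2, 7.96 and 12.8 FPKM. The same libraries as for TUBB were lowest and highest, and PC3-DR replicate 2 lay below the upper 2 PC3 libraries. The mean of PC3 was 8.38 ± 4.61 FPKM (SD, n = 3) and that of PC3-DR 14.0 ± 6.71 FPKM (SD, n = 3), and the log2(FPKM + 1) difference was 0.72 ± 0.51 (SE; 95% interval -0.42 to 1.86; adjusted p = 0.895, limma). Without PC3 replicate 3 the difference was 0.27, and without PC3-DR replicate 1 it was 0.39. The ratio of TUBB to TUBB4B was 2.42 ± 0.11 (SD, n = 3) for PC3, against 2.72 ± 0.54 (SD, n = 3) for PC3-DR, with PC3-DR replicate 2 highest at 3.33. The pair thus kept a ratio of between 2.31 and 3.33 while the level of each varied about 6-fold, by 6.41 times for TUBB and 5.96 times for TUBB4B.

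**Figure D1:**
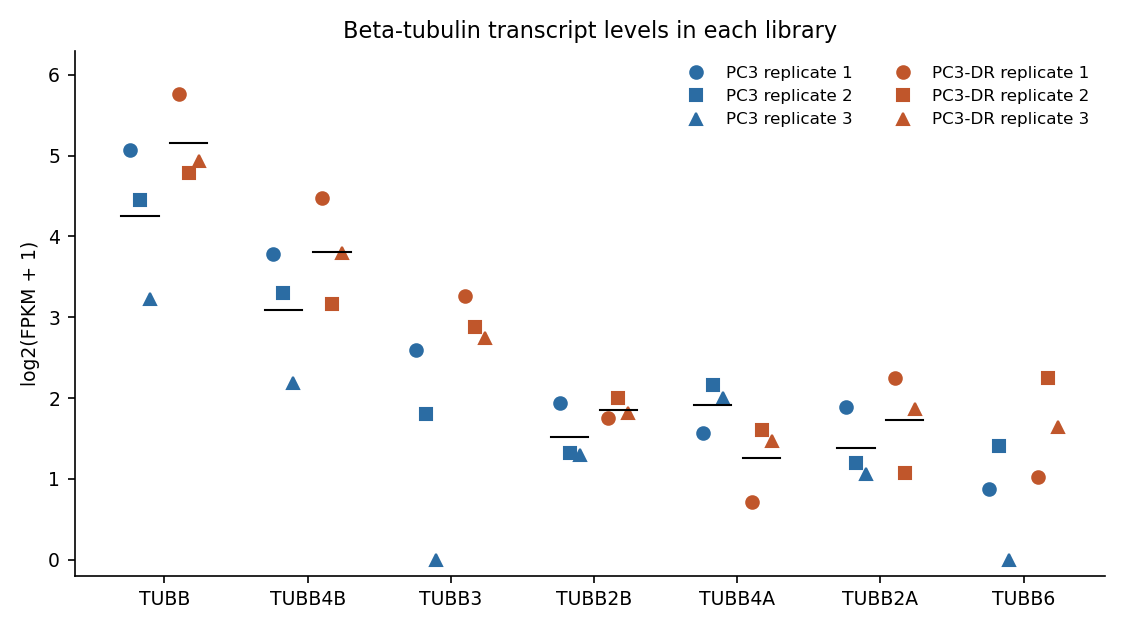
Levels of the 7 beta-tubulin transcripts as log2(FPKM + 1) in each library, with PC3 in blue, PC3-DR in orange, 1 marker per replicate number and a black line at the group mean, left out for TUBB3 and TUBB6, which PC3 replicate 3 lists at 0. TUBB and TUBB4B lie highest, and the groups are apart for TUBB3 alone, with PC3 at 0 to 5.06 FPKM and PC3-DR at 5.72 to 8.58 FPKM. Groups did not overlap for 11.1% of all tested transcripts.

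The library profile of TUBB and TUBB4B was shared by abundant transcripts in general. For this, all tested transcripts were divided after the data had been seen by their mean FPKM over the 6 libraries. The classes are thus set by the same values that are compared, and their medians and shares are descriptions. In the class of 20 FPKM and more, which holds TUBB among 82 transcripts, the PC3 libraries had medians of 33.2, 21.1 and 10.1 FPKM, and the PC3-DR libraries 61.0, 32.3 and 36.2 FPKM, in the order of their numbers. TUBB stayed between 0.82 and 0.99 times that median in all 6 libraries. The median difference of this class was 1.01 on the log2(FPKM + 1) scale, with 98.8% of its members above 0, and 41.5% of its members had a smaller difference than TUBB. In the class of 5 to 20 FPKM, which holds TUBB4B among 595 transcripts, the median difference was 0.71, next to 0.72 for TUBB4B. TUBB4B followed its class less closely than TUBB did, at 1.14 to 1.80 times the class median. Over all 24937 tested transcripts the median difference was -0.13, and it was 0.02 after rescaling by the median of ratios. With both PC3 replicate 3 and PC3-DR replicate 1 left out, the class medians were 0.27 and 0.13, while TUBB stood at 0.10 and TUBB4B at -0.06.

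**Figure D2:**
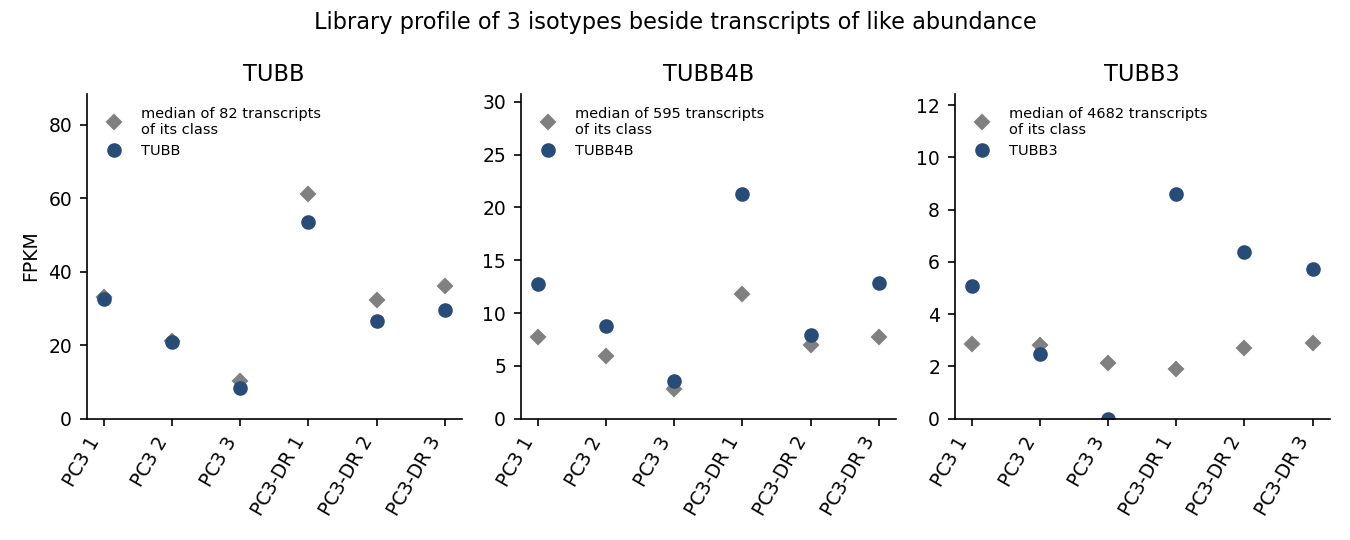
FPKM of TUBB, TUBB4B and TUBB3 in each of the 6 libraries (circles), beside the median FPKM of all tested transcripts of the same class of mean level (grey diamonds), which holds 82, 595 and 4682 transcripts. TUBB stays within 0.82 to 0.99 times its class median, and TUBB4B within 1.14 to 1.80 times. TUBB3, whose class ends just above its mean, lies at 1.98 to 4.50 times its class median in PC3-DR and at 1.77, 0.88 and 0 times in PC3.

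TUBB3, the class III isotype, had the largest fitted difference of the 7 on the log2(FPKM + 1) scale, higher in PC3-DR. This order depended on the setting, since with a pseudocount of 5 TUBB was ahead of TUBB3 (0.77 against 0.71), and without PC3 replicate 3 and PC3-DR replicate 1 TUBB6 was (0.80 against 0.62). PC3 replicates 1 and 2 held 5.06 and 2.47 FPKM and PC3 replicate 3 listed it at 0, while PC3-DR replicates 1 to 3 held 8.58, 6.38 and 5.72 FPKM. Every PC3-DR library lay above every PC3 library, but the gap between the lowest PC3-DR and the highest PC3 library was narrow, 5.72 against 5.06 FPKM. The log2(FPKM + 1) difference was 1.50 ± 0.59 (SE; 95% interval 0.18 to 2.81) with an unadjusted p of 0.0294 and an adjusted p of 0.771 in limma, so TUBB3 did not pass. The two-sided exact permutation p was 0.1, the smallest that 3 against 3 allows. Recovered reads on an inferred length of 1769 nt were 145, 64 and 0 in PC3 and 655, 181 and 158 in PC3-DR. The exact 95% Poisson intervals of PC3 replicate 1, 4.27 to 5.96 FPKM, and PC3-DR replicate 3, 4.86 to 6.69 FPKM, overlapped. A limit of 3 reads in PC3 replicate 3 corresponds to 0.12 FPKM, and 9.08% of the 4682 transcripts with a mean of 2 to 5 FPKM were also listed at 0 in that library.

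Leaving out PC3 replicate 3 lowered the TUBB3 difference to 0.77 ± 0.40 (SE; unadjusted p = 0.0877, adjusted p = 0.967 in limma). Without PC3-DR replicate 1 it was 1.35, and without both it was 0.62. The difference also depended on the scale, at 2.65 with a pseudocount of 0.1, 0.71 with a pseudocount of 5 and 3.45 with voom on recovered reads. In the class of 2 to 5 FPKM, which holds TUBB3 among 4682 transcripts, the median difference was -0.04, and 98.6% of the class had a smaller difference than TUBB3. With both libraries left out this share was 91.0%. The mean of TUBB3, 4.70 FPKM, lies just under the border at 5 FPKM, above which the class median was 0.71. With the filter raised to 5 FPKM, 794 transcripts were tested, TUBB3 included. Their median difference was 0.71, and 91.4% of them had a smaller difference than TUBB3. TUBB3 met that filter through the PC3-DR libraries and PC3 replicate 1, so this set is chosen by the values compared and is no independent yardstick. How far TUBB3 stood from transcripts of like abundance thus depends on where the border is drawn. Within libraries, TUBB3 ranked above 97.5%, 98.0% and 97.1% of tested transcripts in PC3-DR replicates 1 to 3, and above 96.1%, 76.6% and 0% in PC3 replicates 1 to 3. The difference of TUBB3 stayed above 0 in all 16 alternative settings and passed in none of them. Of the 7 transcripts, 1 (TUBB3) had groups that did not overlap, against a background of 11.1% of tested transcripts, made up of 4.11% higher and 6.97% lower in PC3-DR.

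TUBB2A and TUBB2B encode nearly identical class II proteins and are neighbours on chromosome 6, with 4 annotated genes and 0 protein-coding ones between them in RefSeq, 1 of which is the pseudogene TUBB2BP1. How the authors' counting divided reads between such copies is not given in the sources used here, so both levels are uncertain. RefSeq lists 37 pseudogenes with TUBB names in all. How reads were divided between these and the genes is not given either, a limit on the levels, order and shares of all 7 transcripts. For TUBB2A the PC3 libraries, in the order of their numbers, held 2.71, 1.29 and 1.09 FPKM, and the PC3-DR libraries held 3.76, 1.10 and 2.65 FPKM. For TUBB2B these values were 2.84, 1.49 and 1.44 FPKM, against 2.37, 3.00 and 2.50 FPKM. The groups overlapped for both transcripts. The log2(FPKM + 1) difference of TUBB2A was 0.35 ± 0.42 (SE; adjusted p = 0.903, limma). For TUBB2B it was 0.34 ± 0.35 (SE; adjusted p = 0.901, limma). Without PC3-DR replicate 1 the TUBB2A difference was 0.09, without PC3 replicate 3 it was 0.19, and without both it turned to -0.07. For TUBB2B these values were 0.39, 0.22 and 0.27. The 95% intervals with all libraries, -0.59 to 1.28 and -0.44 to 1.12, include no difference as well as a doubling of FPKM + 1. The ratio of TUBB2A to TUBB2B ran from 0.37 in PC3-DR replicate 2 to 1.58 in PC3-DR replicate 1, so the order of the pair was not the same in all libraries.

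TUBB4A, the class IVa isotype of brain, was the sole member with a lower mean in PC3-DR. Over all tested transcripts 39.9% had a difference above 0, or 54.2% without PC3-DR replicate 1. With all libraries the share was 47.4% in the class of 2 to 5 FPKM, which holds TUBB4A. It was 86.4% at 5 to 20 FPKM and 98.8% at 20 FPKM or more, where a rise was the more common direction. PC3 replicates 1 to 3 held 1.96, 3.48 and 2.99 FPKM, and PC3-DR replicates 1 to 3 held 0.64, 2.03 and 1.76 FPKM. The groups overlapped at 1 point, since PC3-DR replicate 2 lay above PC3 replicate 1. Means were 2.81 ± 0.78 FPKM and 1.47 ± 0.74 FPKM (SD, n = 3 each), and the log2(FPKM + 1) difference was -0.65 ± 0.38 (SE; 95% interval -1.50 to 0.20; adjusted p = 0.868, limma). The difference was -0.38 without PC3-DR replicate 1, the library in which TUBB4A was lowest. It was -0.61 without PC3 replicate 3, -0.33 without both and below 0 in all 15 alternative settings that gave it a value. Of the 4682 transcripts with a mean of 2 to 5 FPKM, 11.5% had a smaller difference than TUBB4A, or 19.8% with both libraries left out. With voom on recovered reads it was -1.44 on the scale of log2 reads per library total (unadjusted p = 0.0397, adjusted p = 0.504, limma). Recovered reads were 81, 130 and 110 in PC3 and 70, 83 and 70 in PC3-DR. The 70 reads of PC3-DR replicate 1 come from an inferred total of 43153000, against 14411000 to 16186000 in the other libraries.

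TUBB6, the class V isotype, was the least abundant by its mean over the libraries. PC3 replicates 1 and 2 held 0.84 and 1.66 FPKM and PC3 replicate 3 listed it at 0, while the PC3-DR libraries held 1.03, 3.75 and 2.11 FPKM. PC3-DR replicate 1 lay below PC3 replicate 2, so the groups overlapped. The log2(FPKM + 1) difference was 0.87 ± 0.47 (SE; 95% interval -0.16 to 1.91; adjusted p = 0.854, limma). It was 0.49 without PC3 replicate 3, 1.18 without PC3-DR replicate 1 and 0.80 without both. With a pseudocount of 0.1 it was 1.96, with a pseudocount of 5 it was 0.32, and with voom on recovered reads it was 2.02. In the class of 1 to 2 FPKM, which holds TUBB6 among 15074 transcripts, the median difference was -0.17. There 97.1% had a smaller difference than TUBB6, or 93.8% with both libraries left out. TUBB6 met the filter at 1 FPKM through the PC3-DR libraries and PC3 replicate 2, and its class is set by the same values. These shares are therefore descriptions and lend the difference no support. The smallest length that gives whole reads for TUBB6 is 1032 nt, with 14, 25, 0, 46, 62 and 34 reads in the same order. That is shorter than a full beta-tubulin reading frame, and 2064 nt with 28, 50, 0, 92, 124 and 68 reads meets the values as well. Either way TUBB6 rests on the fewest reads in PC3 of all 7 transcripts, with an exact 95% Poisson interval of 0.46 to 1.41 FPKM in PC3 replicate 1 at the smaller length.

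**Figure D3:**
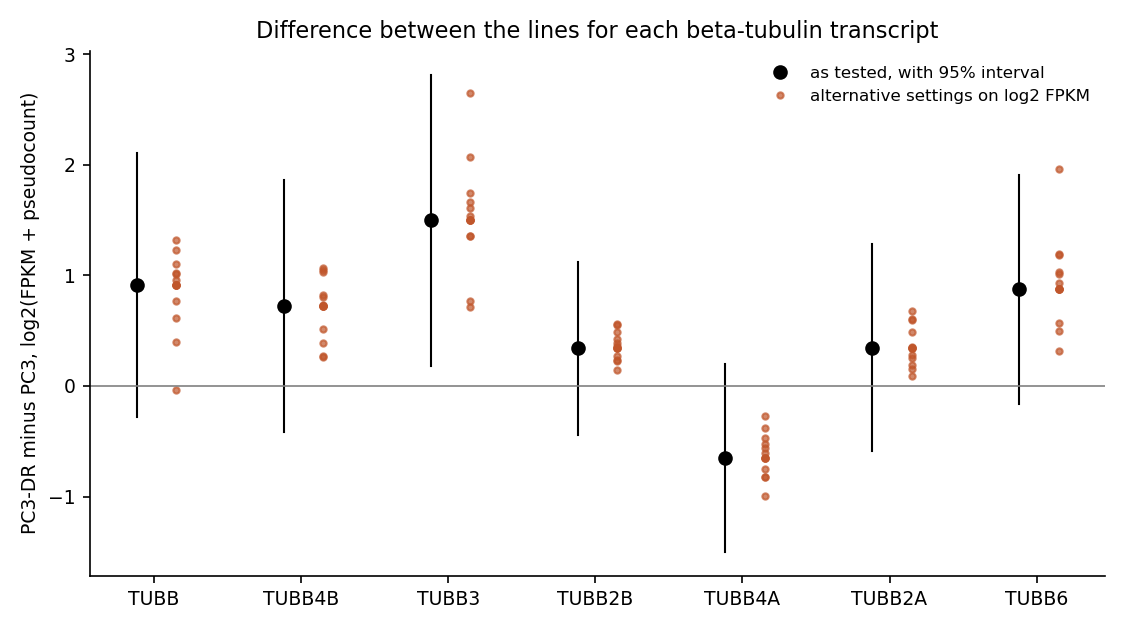
Difference between PC3-DR and PC3 for each transcript on the log2 scale, as tested with its 95% interval (black) and under the alternative pseudocounts, filters, scalings, variance models, replicate block and left-out libraries (orange points). The interval of TUBB3 alone lies above 0, at 0.18 to 2.81 before adjustment for multiple tests, and TUBB4A alone is below 0 in every setting shown, while 1 point of TUBB lies at -0.04.

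Of the 7 transcripts, 0 passed an adjusted p of 0.05, against 0.00401% of the 24937 tested transcripts (1 transcript, limma). At an unadjusted p under 0.05 there was 1 of 7 (TUBB3), against a background of 6.1%. The difference was above 0 for 6 of 7 and for 39.9% of tested transcripts, and the median of the 7 differences was 0.72, against -0.13 over all tested transcripts. This background is not matched for level. The share above 0 was 35.1% at 1 to 2, 47.4% at 2 to 5, 86.4% at 5 to 20 and 98.8% at 20 FPKM or more. The median of 0.72 is the value of TUBB4B, whose class had a median of 0.71. The members shared their extremes, with 6 of the 7 transcripts lowest in PC3 replicate 3 and 4 of the 7 highest in PC3-DR replicate 1, so their directions are not separate observations. These extremes were common among abundant transcripts. In the classes of 1 to 2, 2 to 5, 5 to 20 and at least 20 FPKM, 19.4%, 31.0%, 72.1% and 76.8% were lowest in PC3 replicate 3. Shares highest in PC3-DR replicate 1 were 7.77%, 22.6%, 70.3% and 80.5%, in the same order. With PC3 replicate 3 left out the median of the 7 was 0.27, against -0.17 over all. Without PC3-DR replicate 1 it was 0.39 against 0.04, and after the median of ratios 1.01 against 0.02, with 54.2% and 51.9% of tested transcripts above 0. With quantile normalization 5 of 7 were above 0 and the median was 0.35, against -0.01.

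By mean level over the 6 libraries the order was TUBB (28.6 FPKM), TUBB4B (11.2), TUBB3 (4.70), TUBB2B (2.28), TUBB4A (2.14), TUBB2A (2.10) and TUBB6 (1.56). TUBB exceeded TUBB4B in 6 of 6 libraries, by 1.26 ± 0.20 on the log2(FPKM + 1) scale (SD). TUBB4B exceeded TUBB3 in 6 of 6 libraries as well, by 1.23 ± 0.62 (SD). Each of these steps had a two-sided exact sign-flip permutation p of 0.031, the smallest that 6 libraries allow, or 0.094 after adjustment over the 6 neighbouring pairs. The order was itself taken from these levels, and libraries of the same line were flipped as separate units. These p-values therefore describe the steps and do not test the order. The 4 steps further down did not exceed their spread. TUBB3 exceeded TUBB2B in 5 of 6 libraries by 0.53 ± 0.96 (SD; exact p = 0.219), and for the 3 steps from TUBB2B to TUBB6 the exact p lay between 0.406 and 0.969.

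Summed over the 7 transcripts, the PC3 libraries held 58.8, 40.1 and 17.4 FPKM, and the PC3-DR libraries held 91.1, 50.7 and 57.3 FPKM, in the order of their numbers. The highest PC3 library lay above the lower 2 PC3-DR libraries. The mean sum was 27.6 FPKM higher in PC3-DR, or 15.2 FPKM without PC3-DR replicate 1 and 16.9 FPKM without PC3 replicate 3. Of the sum, TUBB made up 51.8% ± 3.8 in PC3 against 54.3% ± 3.8 in PC3-DR (SD, n = 3 each), and TUBB4B made up 21.4% ± 0.8 and 20.5% ± 4.2. The share of TUBB3 was 8.62%, 6.17% and 0% in PC3 and 9.42%, 12.6% and 9.99% in PC3-DR, so it did not overlap, with PC3 replicate 1 just below PC3-DR replicate 1. This share restates the values of its level, and no background for it was computed. The difference in mean share was 5.74 percentage points, or 3.27 without PC3 replicate 3. TUBB4A held 3.34%, 8.68% and 17.2% in PC3 and 0.70%, 4.00% and 3.07% in PC3-DR, where PC3 replicate 1 and PC3-DR replicate 2 overlapped. Its share was highest in PC3 replicate 3, where the sum was lowest, although its level there, 2.99 FPKM, was below that of PC3 replicate 2, 3.48 FPKM. The difference in mean share was -7.14 percentage points, or -3.42 without PC3 replicate 3. The share of TUBB6 lay between 0% and 4.13% in PC3 and between 1.13% and 7.39% in PC3-DR. These shares are of the 7 listed transcripts, not of all beta-tubulin mRNA.

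**Figure D4:**
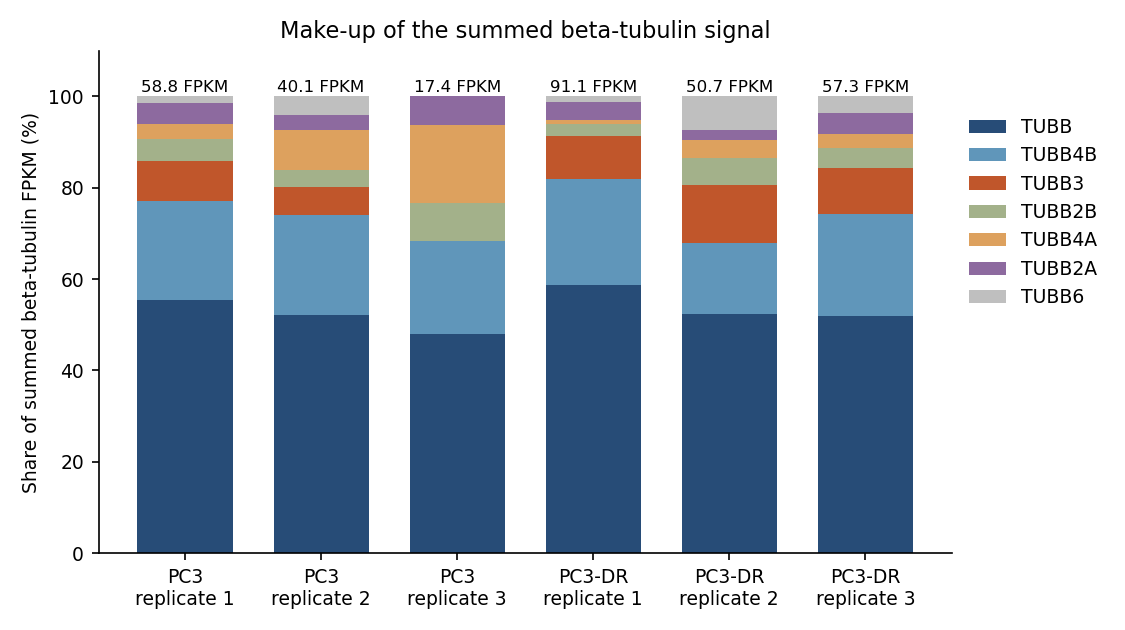
Share of each transcript in the summed FPKM of the 7 beta-tubulin transcripts, 1 bar per library, with the sum printed above it. TUBB holds 47.9% to 58.7% of every bar, TUBB3 holds 0% to 8.62% in PC3 and 9.42% to 12.6% in PC3-DR, and the sums run from 17.4 to 91.1 FPKM.

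Across the 6 libraries, TUBB and TUBB4B varied together on the log2(FPKM + 1) scale, with Pearson r = 0.97 (exact permutation p = 0.0056, adjusted p = 0.088 over the 21 pairs of members) and Spearman rho = 0.89 (exact p = 0.033, adjusted p = 0.175). Without PC3 replicate 3 and PC3-DR replicate 1, the libraries farthest from the median of TUBB, r was 0.74. TUBB and TUBB3 came next, with r = 0.96 (exact p = 0.0083, adjusted p = 0.088), rho = 0.77 (exact p = 0.103, adjusted p = 0.270) and r = 0.77 without the same libraries. TUBB and TUBB4A ran in opposite directions, with r = -0.80 (exact p = 0.082, adjusted p = 0.191), rho = -0.89 (exact p = 0.033, adjusted p = 0.175) and r = -0.90 without the same libraries. TUBB2A and TUBB4B had r = 0.89 (exact p = 0.014, adjusted p = 0.088), rho = 0.94 (exact p = 0.017, adjusted p = 0.175) and r = 1.00 over the 4 remaining libraries. None of the 21 pairs passed 0.05 after adjustment by either measure. Within 1 line there are only 3 libraries, too few for a value of its own. The permutations exchanged all 6 libraries freely, so a difference between the lines or a single outlying library can enter these correlations.

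The profile of TUBB was not particular to it, though most transcripts were less like it. Among 12467 other tested transcripts with a mean above the median, 458 had a Pearson r above 0.95 with TUBB over the 6 libraries, and 213 were more like it than TUBB4B. The closest were ENST00000468084 (r = 0.9985) and ENST00000306749 (r = 0.9976), which are given by identifier because no table used here pairs transcript identifiers with names. The PC3 libraries held 5.23, 3.46 and 0.66 FPKM of ENST00000306749 and the PC3-DR libraries held 10.1, 4.57 and 4.97 FPKM, so it shared both the low PC3 replicate 3 and the high PC3-DR replicate 1.

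The promoters of the abundant pair and of TUBB3 are shown as a choice of examples. TUBB and TUBB4B had the strongest correlation among the 21 pairs, though it did not pass after adjustment. TUBB3 alone of the members had groups that did not overlap, as did 11.1% of all tested transcripts. The sequences are RefSeq's, from GRCh38.p14, and hold the 250 bases before an annotated gene start, read 5′ to 3′ on the gene's strand. All 7 genes matched by symbol, with 11 starts, and which start the deposited transcripts use is not known here. Capitals mark matches on either strand, which may overlap one another, to 3 motifs. The motif CCAAT is the core of the box bound by NF-Y. The motif GGGCGG is the GC box bound by Sp1 family factors. The motif TATAA is the core of a TATA box.
TUBB first start, chr6:30720102-30720351, plus strand: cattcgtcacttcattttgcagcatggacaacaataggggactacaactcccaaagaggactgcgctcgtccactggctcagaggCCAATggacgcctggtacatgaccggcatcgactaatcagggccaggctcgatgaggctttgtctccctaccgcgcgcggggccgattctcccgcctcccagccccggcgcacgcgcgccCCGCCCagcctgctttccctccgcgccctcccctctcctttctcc
TUBB second start, chr6:30721388-30721637, plus strand: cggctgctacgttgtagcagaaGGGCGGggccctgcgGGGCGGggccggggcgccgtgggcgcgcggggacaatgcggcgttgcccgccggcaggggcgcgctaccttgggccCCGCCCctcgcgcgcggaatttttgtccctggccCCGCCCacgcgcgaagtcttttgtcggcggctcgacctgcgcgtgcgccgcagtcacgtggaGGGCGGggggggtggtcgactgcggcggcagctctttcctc
TUBB4B, chr9:137241037-137241286, plus strand: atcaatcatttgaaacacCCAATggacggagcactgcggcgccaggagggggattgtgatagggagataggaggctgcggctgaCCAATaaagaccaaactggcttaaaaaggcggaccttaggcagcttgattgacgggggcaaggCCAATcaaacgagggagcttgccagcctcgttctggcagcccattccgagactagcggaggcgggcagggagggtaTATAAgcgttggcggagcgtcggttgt
TUBB3 second start, chr16:89923092-89923341, plus strand: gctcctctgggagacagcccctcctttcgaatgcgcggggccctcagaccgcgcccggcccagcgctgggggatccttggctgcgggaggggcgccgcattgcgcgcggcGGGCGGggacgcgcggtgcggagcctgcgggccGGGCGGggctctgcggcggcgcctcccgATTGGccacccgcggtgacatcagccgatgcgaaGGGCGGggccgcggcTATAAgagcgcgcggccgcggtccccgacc

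The 2 abundant isotypes did not share a motif set in these windows. TUBB4B held 3 CCAAT matches, 0 GC boxes and a TATAA beginning 27 bases before its start. The first TUBB start held 1 CCAAT and 1 GC box, and the second held 0 CCAAT and 5 GC boxes, with 0 TATAA at either. The second TUBB3 start held 1 CCAAT, 3 GC boxes and a TATAA beginning 30 bases before the start, while its first start held 0 of all 3 motifs. TUBB2A also had a TATAA 30 bases before its start, with 5 GC boxes. Of the 11 windows, 6 held CCAAT, 7 held a GC box and 3 held TATAA, against 32.0%, 42.6% and 18.9% of 35116 RefSeq windows of the same length. Windows with 3 or more CCAAT matches made up 2.93% of all. These are matches of letters, and binding at them was not measured.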

How the data were processed

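RNA of 3 PC3 and 3 PC3-DR libraries was sequenced with Illumina protocols, per the labels. The aligners HISAT2 and TopHat2, the assembler StringTie, the counter featureCounts and the packages DESeq and limma are named, with fastp, FastQC and bcl2fastq, in the submitters' processing notes. No versions or roles are given, and the build named there is the mouse build mm9 for human cells, so no coordinate was taken from the study. The authors deposited normalized values per transcript, taken as FPKM from the values, since no header names the unit. Column names equal the sample titles, and 0 columns belonged to no sample.

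Library totals and read numbers were inferred: for 99.9% of tested transcripts a whole length between 200 and 20000 nt gave whole reads in every library within 0.08 of a read. The smallest such length was used. Whether these are reads or fragments is not known. At the inferred totals, 3 reads on 1 kb correspond to 0.07 to 0.21 FPKM.

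Transcripts at 1 FPKM or more in 3 or more libraries were tested two-sided in limma 3.58.1 (R 4.3.3). The model of log2(FPKM + 1) had the group as its term and a variance trend over mean level, and the Benjamini-Hochberg threshold was 0.05. This scale understates changes of low transcripts. The scripts were tested on simulated data. Exact permutation tests, intervals and figures used Python 3.11.15, NumPy 2.4.6, SciPy 1.17.1, pandas 2.3.3 and matplotlib 3.10.9. The members and lists were chosen with earlier results of these data known. All 7 members are named, beside the 2 transcripts most correlated with the most abundant member. Lists of other microtubule genes and of cell line markers were not used, because transcript identifiers could not be paired with symbols here, so the PC3 label was not checked against markers. Classes by mean level were added after the data had been seen.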

Additional observations from a re-analysis of the deposited data

How the results depend on the processing

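Over 108 alternative values of the 7 differences, 0 passed an adjusted p of 0.05 in limma, with adjusted p between 0.454 and 0.999. The sign was kept in all of them except TUBB under quantile normalization, at -0.041 (adjusted p = 0.983). With PC3 replicate 3 and PC3-DR replicate 1 both left out, which is not among the 108, TUBB2A and TUBB4B also turned, to -0.07 and -0.06. The cause was not tested. With 5 FPKM as the filter only TUBB, TUBB3 and TUBB4B were tested. Leaving out single libraries gave 0.40 to 1.32 for TUBB, 0.27 to 1.07 for TUBB4B, 0.77 to 2.07 for TUBB3, 0.09 to 0.68 for TUBB2A, 0.22 to 0.55 for TUBB2B, 0.49 to 1.20 for TUBB6 and -0.82 to -0.38 for TUBB4A. The pseudocount and voom moved TUBB3 from 0.71 to 3.45 and TUBB6 from 0.32 to 2.02. Over all tested transcripts, 1 passed as tested and with quantile normalization. In limma 0 passed with voom on the recovered reads, a pseudocount of 0.1 or 5, the 5 FPKM filter, no filter, no variance trend or the median of ratios. In that order, 2329, 1167, 1539, 57, 3008, 1483 and 1633 had an unadjusted p below 0.05. Robust hyperparameters gave 6, and leaving out single libraries gave between 0 and 1, with 790 to 1632 at an unadjusted p below that level. The summed level of the 7 transcripts was 27.6 FPKM higher in PC3-DR as deposited and 49.3 higher after the median of ratios, where PC3-DR replicate 1 is divided by 0.59. Leaving out single libraries gave 15.2 (without PC3-DR replicate 1) to 37.6. DESeq2 was not run, since the values are FPKM.

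Replicate numbers did not pair the libraries clearly: the deviations from the group means had correlations of 0.19, -0.0039 and 0.093 between libraries of equal number. Between unequal numbers they ran from -0.18 (PC3 replicate 3 with PC3-DR replicate 1) to 0.11 (PC3 replicate 3 with PC3-DR replicate 2). With a replicate block, limma passed 0 transcripts, 1707 had an unadjusted p below 0.05, and the adjusted p was 0.657 for TUBB3 and 0.730 for TUBB.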
